A study of Mus musculus with 6 samples.

Results

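The 10 genes described here make up the core of the class I antigen presentation pathway: the heavy chains H2-K1 and H2-D1, the light chain B2m, the peptide transporter genes Tap1 and Tap2, the loading factor Tapbp, the immunoproteasome subunits Psmb8, Psmb9 and Psmb10, and the transactivator Nlrc5. They were taken by name from the 16150 gene symbols in the deposited data, and all 10 were present. Their levels were read in every named cell class of the skin and compared between the 3 groups of mice.

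Single cells were profiled from skin of 6 NINJA mice, which are built so that a neoantigen can be induced. The mice were 6 to 12 weeks old, and the skin area sampled had received 4-OH-Tam in every group, NO_AG included. The groups of 2 mice each were NO_AG (antigen off), AG (antigen on) and AG_CPI (antigen on with CPI, which the labels do not spell out, although the series' title names PD-1). P14 CD8 T cells were present in the skin of these mice, and per the labels each animal had been checked for its skin phenotype and for those cells before sequencing. P14 is a T cell receptor transgene known to read a viral peptide on a product of H2-D1. The labels do not say whether the mice of a group shared a litter, so p-values measure the spread between these mice only.

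Class I molecules show peptides from inside the cell to CD8 T cells. Proteins are cut by the proteasome, the TAP transporter carries the peptides into the endoplasmic reticulum, tapasin holds the empty class I molecule beside the transporter, and a heavy chain with its light chain B2m takes the peptide to the surface. Interferon-gamma is the textbook inducer of these genes: it raises the immunoproteasome subunits, which replace the constitutive catalytic subunits, and Nlrc5, which binds class I promoters. The hair follicle bulge and germ are a textbook example of a tissue site with little class I.

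The promoter stretches of 5 members are shown as examples: those of the heavy and light chains, which form the class I molecule itself, and the stretch that Tap1 and Psmb9 share. RefSeq on GRCm38.p6 held a window for 8 of the 10 members. Each line gives up to 250 bases before a transcript start in the RefSeq table, 5′ to 3′ on the strand of the gene, with motif letters in capitals. For H2-K1 the table has 2 such starts, both inside the full span of the gene given below, and the window of 1 of them is printed. The motifs described here, sought on both strands, are GAAANNGAA, as in an interferon-stimulated response element, GGGGATTCC, an NF-kappa-B site, and CCAAT, a Y-box core.
H2-K1, chr17:34000348-34000597, minus strand: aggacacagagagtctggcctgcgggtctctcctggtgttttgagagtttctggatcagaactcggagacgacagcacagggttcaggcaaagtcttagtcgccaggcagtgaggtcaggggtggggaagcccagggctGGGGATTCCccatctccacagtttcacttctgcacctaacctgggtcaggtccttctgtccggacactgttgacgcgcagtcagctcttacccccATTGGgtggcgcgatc
H2-D1, chr17:35262844-35263093, plus strand: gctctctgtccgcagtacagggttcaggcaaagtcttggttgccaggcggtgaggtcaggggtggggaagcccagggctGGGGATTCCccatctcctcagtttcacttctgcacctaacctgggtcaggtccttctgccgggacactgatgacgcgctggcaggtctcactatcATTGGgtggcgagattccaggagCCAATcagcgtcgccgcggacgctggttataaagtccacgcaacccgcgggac
B2m, chr2:122147437-122147686, plus strand: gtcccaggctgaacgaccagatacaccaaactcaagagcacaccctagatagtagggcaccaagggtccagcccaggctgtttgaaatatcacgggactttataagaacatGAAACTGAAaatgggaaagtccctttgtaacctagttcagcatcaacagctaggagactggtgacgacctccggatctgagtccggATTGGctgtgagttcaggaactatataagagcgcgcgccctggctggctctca
Tap1 and Psmb9 (shared), chr17:34187331-34187555, plus strand: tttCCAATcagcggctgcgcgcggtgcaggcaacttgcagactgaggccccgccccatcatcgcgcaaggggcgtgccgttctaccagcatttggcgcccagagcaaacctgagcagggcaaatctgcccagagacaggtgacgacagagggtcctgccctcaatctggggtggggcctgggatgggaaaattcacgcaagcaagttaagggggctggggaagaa

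The NF-kappa-B letters GGGGATTCC stood once in each of the H2-K1 and H2-D1 windows, and 0.213% of all 32851 windows of that length held them. The B2m window held 1 match to GAAANNGAA, read as GAAACTGAA, and 7.13% of all windows held a match to GAAANNGAA. The H2-K1 and H2-D1 windows held 0 matches to it. Other forms of the interferon-stimulated response element were not sought. A window without a match, those of the heavy chains included, is therefore not shown to lack such an element. A CCAAT box stood in the windows of 6 of the 8 members that had one, Psmb8 and Psmb10 being without, and in 33.8% of all windows. Tap1 and Psmb9 lie back to back on chromosome 17 with 225 bases between their starts, so both are read from the last printed stretch in opposite directions. A match is a run of letters and not a measured binding site. On the same build Tapbp lies at chr17:33919478-33929290, H2-K1 at chr17:33996012-34000619, Psmb8 at chr17:34198195-34201454, Tap2 at chr17:34204479-34216321, H2-D1 at chr17:35263094-35267497 and B2m at chr2:122147687-122153082. Nlrc5 at chr8:94434335-94527272 and Psmb10 at chr8:105935728-105938392 share a chromosome but not a neighbourhood.

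The libraries held 1736 to 4972 cells and 5903724 to 24656382 UMIs (unique molecular identifiers, counted once per RNA molecule), with the fewest of both in the AG_CPI mice. Median UMIs per cell were 2527 to 4744, and 255 of 20921 distinct barcodes occurred in more than 1 library. Of 21178 cells, 20461 were kept and fell into 53 clusters, which were named from marker genes after the class I and interferon genes had been left out of the clustering. Cells of AG mouse 2 stood apart: 483 of the 523 cells of a keratinocyte-like cluster led by Ccl24, Postn and Igfl3, with mt-Nd6 and other mitochondrial genes among its leading genes and a median of 1791 UMIs, and 620 of the 651 cells of another led by Tslp, Il24 and Krt6a, came from that mouse. Results on keratinocyte-like cells as a whole therefore compare different mixtures of states, and the suprabasal and upper follicle states, each 1 cluster with cells of all 6 mice, are given beside them. The basal state joins a cluster not marked by cell-cycle genes, which holds 560 and 358 cells of the NO_AG mice but 55 and 3 of the AG and 4 and 1 of the AG_CPI mice, with a cluster marked by them (the dividing cluster), which holds 158 and 93, 170 and 66, and 18 and 18. Basal values therefore compare different mixtures of these clusters, and the basal results are also given within the dividing cluster. Levels are mean UMIs per 10000 UMIs of a cell in 1 mouse, for classes with at least 10 cells in that mouse. UMI levels do not scale with transcript length. Differences between genes in capture and in read assignment were not corrected, so levels of different genes are set side by side only with that limit. H2-K1, H2-D1 and the H2-Q genes are near-identical in places, and reads could have been assigned to the wrong heavy chain.

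In NO_AG skin the heavy and light chains differed several-fold between cell classes. H2-K1 stood at 27.3 and 36.4 in other alpha-beta T cells (those outside the CD8 gate), at 28.2 and 33.0 in CD8 T cells, at 25.6 and 36.1 in gamma-delta T-like cells and at 24.9 and 37.0 in endothelial-like cells, and these ranges overlapped. ILC2-like cells were at 26.0 and 29.7, and basal keratinocyte-like cells came next at 18.8 and 22.8, followed by the upper hair follicle at 14.2 and 18.3 and suprabasal cells at 13.1 and 13.7. Dendritic/Langerhans-like cells, at 6.37 and 7.61, overlapped with the bulge and germ, at 8.02 and 5.23. Fibroblast-like cells were lowest at 2.99 and 3.12, below every other class in both mice. B2m followed nearly the same order, from 25.4 and 25.5 in CD8 T cells down to 7.42 and 4.56 in the bulge and germ and 4.79 and 4.05 in fibroblast-like cells, and those last ranges overlapped.

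**Figure D1:**
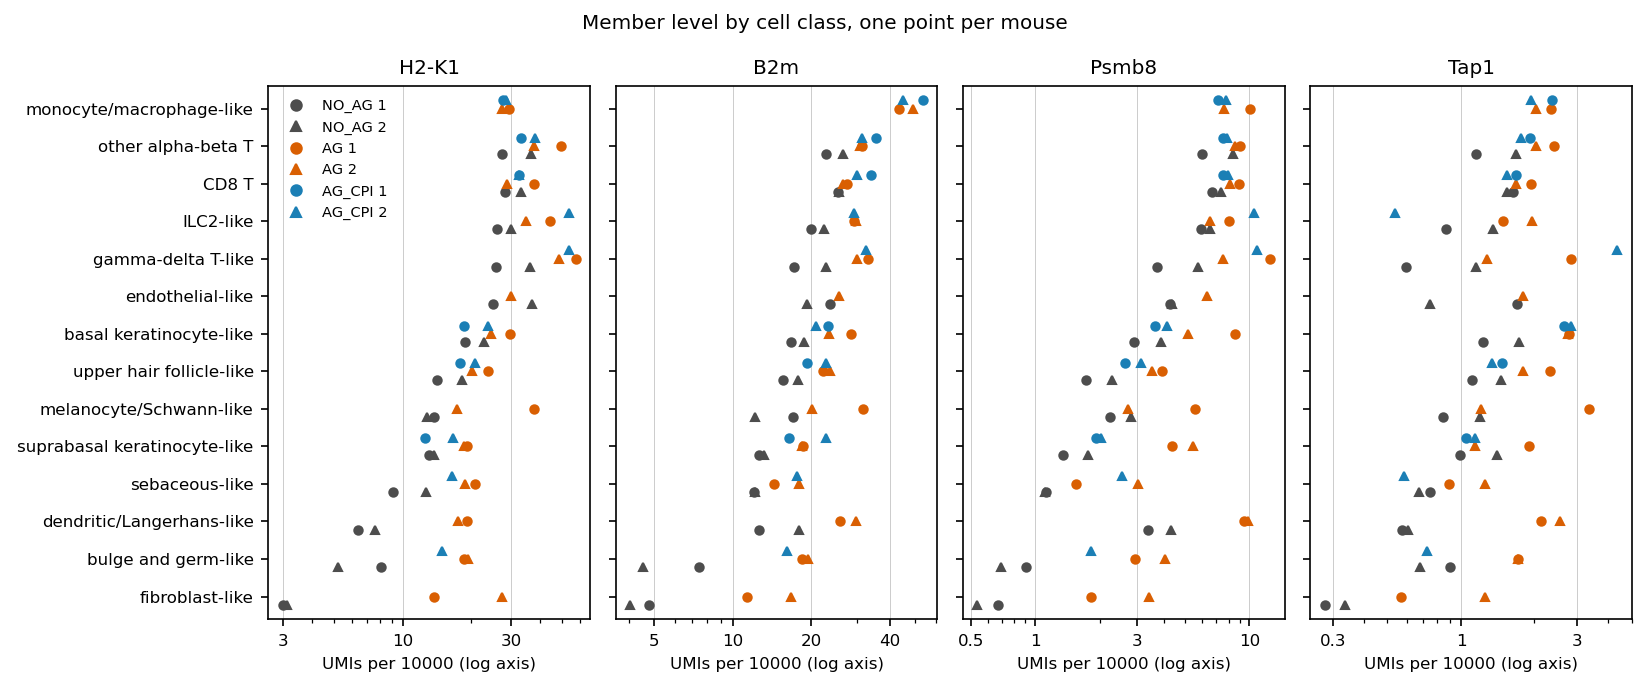
Mean level of H2-K1, B2m, Psmb8 and Tap1 (UMIs per 10000 UMIs, log axis) in each cell class, 1 point per mouse, coloured by group; classes with fewer than 10 cells in a mouse have no point. The fibroblast-like row holds the lowest NO_AG points for H2-K1, the bulge and germ and fibroblast-like rows hold the lowest for B2m, and in both rows the AG points lie to the right of the NO_AG points.

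The inducible subunits Psmb8 and Psmb9 had the same low end. Psmb10 was lowest on the mean in the bulge and germ, at 0.183 and 0.3001, with fibroblast-like cells at 0.495 and 0.241, ranges that overlapped. Psmb8 was 0.911 and 0.690 in the bulge and germ and 0.672 and 0.538 in fibroblast-like cells of the NO_AG mice, against 2.88 and 3.88 in basal cells and 6.72 and 7.38 in CD8 T cells. Tap1, which pairs with Tap2 to form the peptide transporter, was 0.277 and 0.335 in fibroblast-like cells, 0.572 and 0.609 in dendritic/Langerhans-like cells and 1.63 and 1.54 in CD8 T cells. Its order was flatter than that of the heavy chains: from CD8 T cells down to the sebaceous gland each class overlapped with the next. Nlrc5 was the member with the lowest levels, at most 0.591 in any class of the NO_AG mice and 0.0148 and 0.0461 in dendritic/Langerhans-like cells.

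The comparison of AG with NO_AG mice asks what antigen in the skin did to the pathway. Among bulge and germ-like cells 5 of the 10 members rose with antigen, where 0.538% of all genes were called. In fibroblast-like cells 3 of the 9 members tested rose (0.199% of all genes called), in dendritic/Langerhans-like cells 4 of 9 (0.844%), and in keratinocyte-like cells as a whole 3 of 10 (0.465%). In basal cells 1 rose (0.295%). None did in suprabasal cells (0.0292%), the upper hair follicle (0.265%), gamma-delta T-like (0%), ILC2-like (0%) or CD8 T cells (1.88%). No member fell in any class. Of all 98 tests of a member in a class, 98 gave a difference above 0, as did 48.8% of the tests of all genes in these classes. On the levels printed here 86 had both AG mice above both NO_AG mice, against 16.3% for all genes, and after the scaling used in the fits 90 did, against 21.6%. These tests are not separate pieces of evidence. The keratinocyte-like class includes the cells of its states, every class comes from the same mice, and the members' levels run together. At an unadjusted p under 0.05 stood 10 members in keratinocyte-like cells (8.46% of all genes), 10 in the bulge and germ (6.84%), 9 in dendritic/Langerhans-like cells (16.7%), 7 in basal cells (6.75%), 6 in fibroblast-like cells (5.85%) and 4 in CD8 T cells (13.6%). Adjusted p-values are from limma-trend with Benjamini-Hochberg adjustment over all genes tested in a class, a gene was called below 0.05, and differences are on the log2 scale with their standard errors. With 2 mice against 2 an exact permutation test of a single gene cannot go below 0.333, so the calls rest on a spread estimated across genes and across the mice with at least 10 cells: 6 mice for keratinocyte-like and CD8 T cells and the basal, suprabasal and upper follicle states, 5 for bulge and germ-like, gamma-delta T-like and ILC2-like cells and 4 for fibroblast-like and dendritic/Langerhans-like cells. In the classes with 4 or 5 mice, leaving out a NO_AG or AG mouse leaves 1 pair of mice to give the spread, so added calls in such a fit show no stability.

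The bulge and germ of the hair follicle, which hold its stem cells, are taken first. The background there was 43 called genes of 7997 tested, or 0.538%. B2m stood at 7.42 and 4.56 in NO_AG mice 1 and 2 and at 18.4 and 19.4 in the AG mice. H2-K1 went from 8.02 and 5.23 to 18.6 and 19.4. Neither gene's groups overlapped, B2m rose by 1.81 ± 0.23 (adjusted p = 0.0179), a 3.15-fold ratio of means, and H2-K1 rose by 1.67 ± 0.21 (adjusted p = 0.0179), 2.87-fold. In the AG mice both genes were thus at the level of suprabasal cells of the same mice, 18.6 and 18.4 for B2m.

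Psmb8, the inducible partner of Psmb5, had the largest difference among the members in the bulge and germ. It was 0.911 and 0.690 without antigen and 2.93 and 4.03 with it, a 4.35-fold ratio (2.11 ± 0.22, adjusted p = 0.00923). Psmb9, the inducible partner of Psmb6, was 0.552 and 0.519 against 1.84 and 2.40 (1.91 ± 0.20, adjusted p = 0.00923). Tapbp, which encodes tapasin, rose from 0.429 and 0.592 to 1.26 and 1.93 (1.57 ± 0.25, adjusted p = 0.0432). The other 5 members had both AG mice above both NO_AG mice without passing the threshold: H2-D1 at an adjusted p of 0.0559, Tap1 at 0.0645, Tap2 at 0.0796, Psmb10 at 0.0869 and Nlrc5 at 0.61. The median difference over the 10 members was 1.62, against a median of 0.00 over all genes tested. All 10 members had both AG mice higher, which 11.8% of all genes did.

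AG mouse 2 gave 211 bulge and germ-like cells, of which 80 were in the cluster that holds all such cells of the NO_AG mice and of AG mouse 1, 40 in a cluster led by Pinlyp, Krt32 and S100a3, with Krt82 beside Krt32 (both keratins of the hair cuticle, not bulge markers), and 91 in one led by Fam13a, Abi3bp and Slc7a2. Within the shared cluster B2m was 18.4 and 19.0, H2-K1 was 18.6 and 21.5 and Psmb8 was 2.93 and 4.13 in the AG mice, 7 members were called and the median difference was 1.64. Summed leukocyte markers (12 genes, among them Ptprc, Cd3e and Lyz2) reached 0.587 and 0.259 UMIs per 10000 in the bulge and germ of NO_AG mice and 3.08 and 12.0 in that of AG mice, 6.72% of the leukocyte level at most. With leukocyte RNA subtracted in proportion 4 members were called and the median was 1.58. The counts of calls in the shared cluster and after this subtraction are given without the share of all genes called. They do not show a change particular to the members. Without AG mouse 1 there were 8 called members, with 2.57% of all genes called, and none was called with doublets kept, at the coarser clustering resolution of 0.5 or without the filter on low values, each with a median above 0.

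Fibroblast-like cells had the largest estimates for the heavy chains. Of these 243 cells 198 were in a cluster led by Crabp1, Vcan and Rspo3, with no listed fibroblast marker among its 10 leading genes, although Col1a1, Col1a2, Col3a1 and Sparc marked it. Crabp1 and Rspo3 are known from the dermal papilla of the hair follicle. The other cluster was led by Clec3b, Col1a1 and Col3a1. The background was 9 called genes of 4515, or 0.199%. H2-K1 was 2.99 and 3.12 in the NO_AG mice and 13.7 and 27.2 in the AG mice, 6.70-fold higher (2.66 ± 0.30, adjusted p = 0.0283). H2-D1 was 4.16 and 4.64 against 12.4 and 23.6, 4.09-fold higher (1.98 ± 0.29, adjusted p = 0.0405). B2m rose 3.19-fold, from 4.79 and 4.05 to 11.4 and 16.8 (1.67 ± 0.25, adjusted p = 0.0405). The spread between the AG mice was wide, and the higher value of each of these genes came from AG mouse 2, which had only 27 such cells. The processing genes did not pass: Psmb8 was 0.672 and 0.538 against 1.82 and 3.39 (adjusted p = 0.114), and Tap1 was 0.277 and 0.335 against 0.568 and 1.26. Nlrc5 was at 2, 2, 0 and 3 UMIs in the 4 mice and was not tested. Of the 9 members tested, 7 had both AG mice higher, against 16.0% of all genes. Without AG mouse 1 there were 5 called members, with 6.61% of all genes called. With the deposited scaling alone 1 was called, and with doublets kept, at coarser clustering or under stricter cell filters, each of which put more cells in the class, none was. In the larger cluster alone the same 3 genes were called, H2-K1 at 2.59 and 2.97 against 16.0 and 32.6 (3.01 ± 0.32, adjusted p = 0.00888). AG_CPI mice gave only 8 and 6 fibroblast-like cells.

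In dendritic/Langerhans-like cells, which take up antigen and present it to T cells, 4 members rose, on a background of 52 called genes of 6164, or 0.844%. Tap1 changed most among them, from 0.572 and 0.609 to 2.12 and 2.54, 3.95-fold (1.97 ± 0.23, adjusted p = 0.0214). H2-K1 went from 6.37 and 7.61 to 19.2 and 17.5 (1.55 ± 0.14, adjusted p = 0.0168) and H2-D1 from 8.51 and 9.43 to 18.1 and 18.6 (1.2 ± 0.13, adjusted p = 0.0214). Psmb8 rose from 3.35 and 4.33 to 9.41 and 9.83 (1.48 ± 0.18, adjusted p = 0.0217). B2m stayed above the threshold at an adjusted p of 0.0562. All 9 members tested had both AG mice higher, against 17.6% of all genes. Cd207, which encodes langerin and marks Langerhans cells, was 22 and 21.2 in this class of the NO_AG mice and 16.2 and 9.05 in the AG mice, which gave 35 and 36 cells against 222 and 136; the part of that shift in the result was not tested. Under this clustering the AG_CPI mice had none of these cells, but they had 31 and 37 with doublets kept, 38 and 49 at the coarser resolution, where the AG mice had 80 and 147, and 16 and 13 with all variable genes in the clustering. Without NO_AG mouse 2, AG mouse 1 or AG mouse 2 all 9 members were called, but so were 2.99%, 25.8% and 27.9% of all genes. None was called with cells thinned to 1500 UMIs or without the filter on low values.

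**Figure D2:**
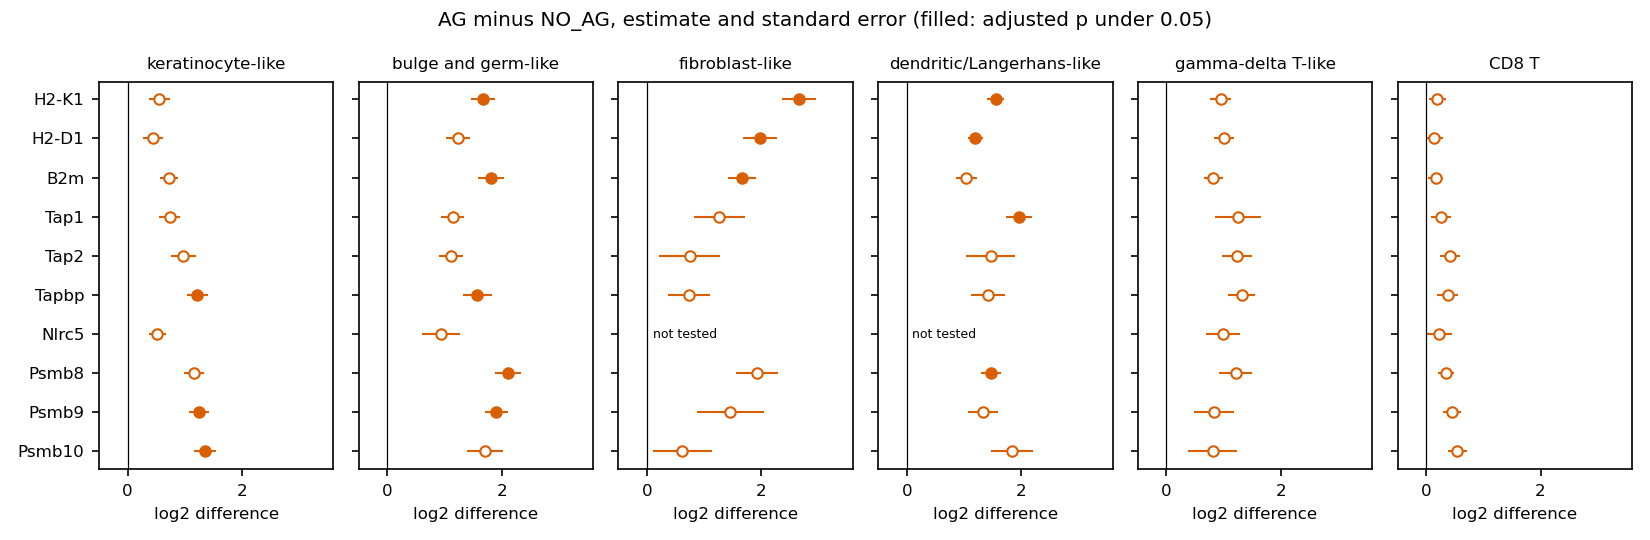
Log2 difference of each member between AG and NO_AG mice in 6 of the cell classes tested, with its standard error; filled points are genes called at an adjusted p below 0.05. All points lie above 0, and the filled ones are in the keratinocyte-like, bulge and germ-like, fibroblast-like and dendritic/Langerhans-like panels, with none in the gamma-delta T-like and CD8 T panels.

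In all keratinocyte-like cells pooled the background was 38 called genes of 8165, or 0.465%. The genes that rose were Psmb9, from 0.987 and 1.25 to 2.88 and 2.43 (1.25 ± 0.17, adjusted p = 0.0318), Psmb10, the inducible partner of Psmb7, from 0.459 and 0.535 to 1.31 and 1.41 (1.35 ± 0.19, adjusted p = 0.0378), and Tapbp, from 0.707 and 0.999 to 1.96 and 2.03 (1.22 ± 0.18, adjusted p = 0.0462). Psmb8 was 2.02 and 2.42 against 5.29 and 4.43 and fell short at an adjusted p of 0.0529. The chains themselves differed less: H2-K1 was 14.3 and 15 against 23.3 and 18.1 (adjusted p = 0.402) and B2m 13.8 and 13.4 against 22.7 and 20.3 (adjusted p = 0.194). All 10 members had both AG mice higher, against 17.1% of all genes, and their median difference was 0.85 against -0.01 over all genes. The calls did not withstand a smaller set of mice: none was left without NO_AG mouse 1, NO_AG mouse 2 or AG mouse 2, and 1 without any other mouse. None was left without the filter on low values and 1 at coarser clustering. The summed leukocyte markers were at 1.13 and 2.05 UMIs per 10000 in these cells of the NO_AG mice and at 1.90 and 16.9 in the AG mice, so AG mouse 2 carried the most leukocyte RNA. With leukocyte RNA subtracted in proportion to those markers 2 members were called and the median was still 0.85. Without the clusters that came almost wholly from 1 mouse 1 member was called and the median was 0.89.

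Within the basal, suprabasal and upper follicle states the calls were fewer. In basal cells, the dividing layer of the epidermis, Psmb10 rose from 0.564 and 0.534 to 2.25 and 1.94, 3.82-fold (1.78 ± 0.22, adjusted p = 0.0266), on a background of 22 called genes of 7466, or 0.295%. Psmb9 was 1.40 and 1.79 against 4.31 and 3.70 in the same cells (adjusted p = 0.184), and all 10 members had both AG mice higher, against 23.7% of all genes. Within the dividing basal cluster Psmb10 was 0.625 and 0.786 against 2.66 and 1.94 (1.68 ± 0.27, adjusted p = 0.0455). Psmb9 differed less there, at 2.45 and 3.34 against 4.87 and 3.79 (adjusted p = 0.671), and the median of the members was 0.77 against 0.96 over both clusters. H2-K1, at 21.3 and 26.1 against 28.8 and 24.4, and H2-D1, at 15.6 and 16.6 against 20.3 and 14.6, overlapped in that cluster. The call over both basal clusters was lost without any 1 of the NO_AG or AG mice, at coarser clustering, with all variable genes in the clustering, in thinned cells and without the filter on low values, and there were 2 calls without either AG_CPI mouse (0.857% and 0.871% of all genes). Suprabasal cells, which differentiate towards the skin surface, had no called member, on a background of 0.0292%. Their Psmb8 was 1.35 and 1.77 against 4.38 and 5.45 (1.74 ± 0.28, adjusted p = 0.137), and 8 of the 10 members had both AG mice higher, against 15.5% of all genes. The upper hair follicle also had none, on a background of 0.265%, with 9 of the 10 members higher in both AG mice, against 17.1% of all genes. At an unadjusted p under 0.05 there were 8 members in suprabasal cells (4.45% of all genes) and 9 in the upper follicle (4.69%), where 2 were called without AG_CPI mouse 1 (1.23% of all genes) and 2 without AG_CPI mouse 2 (1.24%).

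**Figure D3:**
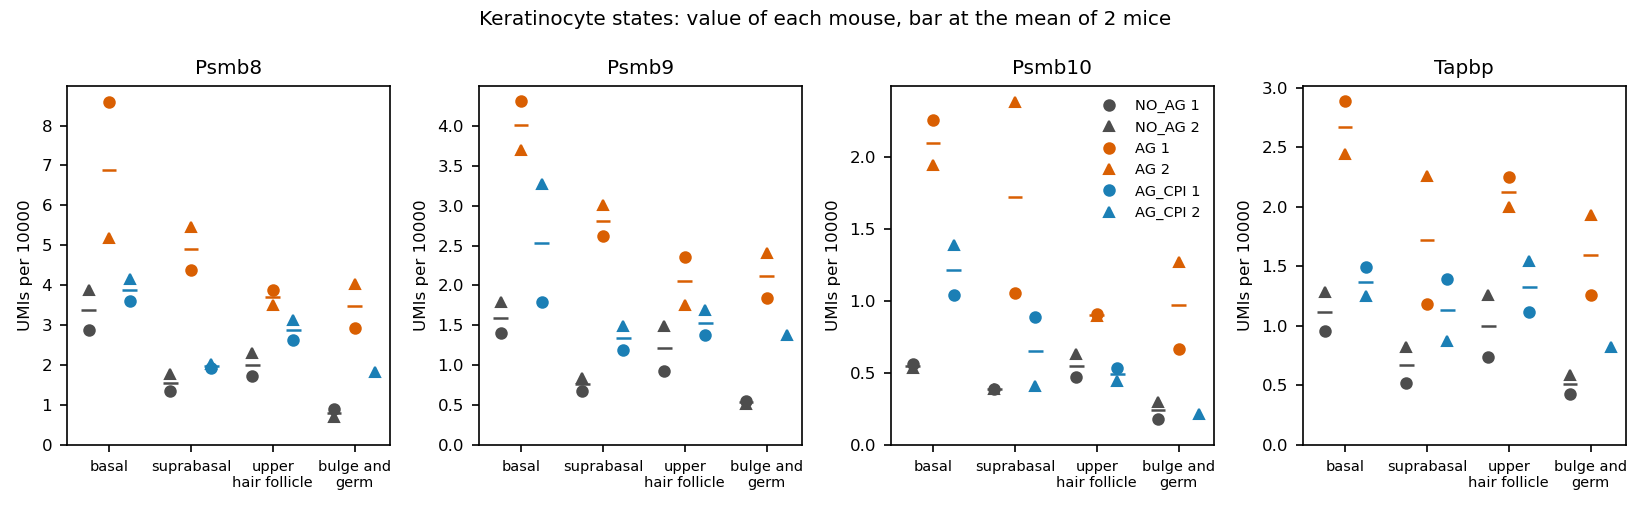
Mean level (UMIs per 10000 UMIs) of Psmb8, Psmb9, Psmb10 and Tapbp in 4 keratinocyte states, 1 point per mouse by group, with a bar at the mean where 2 mice have a value. The lowest NO_AG point of each gene is in the bulge and germ, and in all 4 states the AG points lie above the NO_AG points.

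Lymphocytes started high. CD8 T cells had no called member although 136 of 7240 genes, or 1.88%, were called there: H2-K1 was 28.2 and 33.0 against 37.7 and 28.7, B2m was 25.4 and 25.5 against 27.4 and 26.4, and the lowest adjusted p was 0.13, for Psmb10 at 1.45 and 1.49 against 2.04 and 2.11. The groups of H2-K1 overlapped, and 6 of the 10 members had both AG mice higher, against 16.0% of all genes. The clusters behind these cells differed between groups: the one led by Gzmc and Cd160 held 99 and 303 of them in the NO_AG mice and 389 and 105 in the AG mice, and those led by Ccl5 and by Gzma together with Ccl1 and Trav14-1 held 4 and 4, and 0 and 13, in the NO_AG mice but 90 and 171, and 187 and 98, in the AG mice. Within the Gzmc cluster no member was called either, 3 had an unadjusted p under 0.05, and the median difference was 0.43 against 0.31 over the whole class. In gamma-delta T-like cells no gene at all was called (0% of 7191), so the test separated nothing there. The values of those cells were nevertheless apart: H2-K1 was 25.6 and 36.1 against 57.3 and 48.6 and H2-D1 was 25.7 and 35.4 against 52.9 and 56.1, each at an adjusted p of 0.431. The median difference in gamma-delta T-like cells was 1.00, 8 members had an unadjusted p under 0.05 (8.04% of all genes), and 8 of 10 had both AG mice higher, against 12.4% of all genes. Without AG mouse 1 there were 8 calls among the members, with 30.5% of all genes called, and without AG mouse 2 all 10 were called, with 9.75% of all genes called and the mouse left in that group assumed to vary like the others. ILC2-like cells, a cluster whose leading genes hold Ccr6 and Il17a of type 17 lymphocytes beside Il13 and Ccr8 of its own marker list, likewise had no called gene (0% of 4506), with a median difference of 0.55, 6 members at an unadjusted p under 0.05 (4.77% of all genes) and 9 of 10 members higher in both AG mice, against 16.7% of all genes, and 3 calls without AG mouse 1 (16.1% of all genes called). Monocyte/macrophage-like cells as named here were too few in NO_AG mice (7 and 3) to compare, and in the AG mice they had the most B2m of any class, 43.2 and 49.0. A cluster left unnamed, led by Retnla, Mgl2 and F13a1 with Mrc1 among its leading genes, was not counted with them. It held 48 and 23 cells of the NO_AG mice and 37 and 95 of the AG mice. Endothelial-like cells were also too few in AG mouse 1 (7 cells). Their H2-K1 was 24.9 and 37.0 with antigen off and 29.7 in AG mouse 2, and their Psmb8 was 4.26 and 4.35 against 6.33. Summed leukocyte markers in endothelial-like cells were 2.10 and 4.23 UMIs per 10000 in the NO_AG mice and 24.2 in AG mouse 2. The part of that RNA in these values was not tested.

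Whether the change with antigen differed between classes was tested on the difference between 2 classes within each mouse. No member was called. Fibroblast-like against keratinocyte-like cells gave 0 of 9 members, with 0% of 4017 genes called, and H2-K1 had the largest difference at 2.10 ± 0.49 (adjusted p = 0.647). At an unadjusted p under 0.05 there were 3 members (6.12% of all genes), and without AG mouse 1 there were 4 calls (9.89% of all genes called). For CD8 T against keratinocyte-like cells 0 of 10 were called, with 0.27% of 6288 genes called. All 10 differences were below 0 there, Tapbp lowest at -0.84 ± 0.22 (adjusted p = 0.217), 6 members had an unadjusted p under 0.05 (10.5% of all genes) and 2 were called with a pseudocount of 0.5. Hair follicle against interfollicular keratinocyte-like cells gave 0 of 10, with 0% of 7029 genes called, and 1 member at an unadjusted p under 0.05 (2.93% of all genes). The hair follicle class here joined the bulge and germ with the upper follicle, in proportions that differed between mice. The bulge and germ alone was not tested against another class. The larger ratios in fibroblast-like cells are therefore not shown to exceed those of keratinocyte-like cells, and those in the bulge and germ were not tested in this way.

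The immunoproteasome forms when inducible subunits replace the constitutive ones, and the share of the inducible subunit's RNA was read for each catalytic pair. These are shares of RNA, and the subunits inside proteasomes were not measured. In the bulge and germ Psmb8 made up 26.5% and 20.1% of Psmb8 and Psmb5 together in the NO_AG mice and 53.4% and 61.2% in the AG mice. For Psmb9 with Psmb6 the shares there were 17.6% and 15.3% against 41.9% and 49.2%. For Psmb10 with Psmb7 they were 16.3% and 26.1% against 41.4% and 61.6%. In suprabasal cells the Psmb8 share was 34.6% and 39.4% against 56.1% and 58.0%, and in dendritic/Langerhans-like cells 60.8% and 67.2% against 79.8% and 78.3%. For the Psmb8 share CD8 T cells were at 75.8% and 73.4% without antigen and at 77.6% and 75.1% with it, ranges that overlapped. Their other pairs did not overlap. The Psmb9 share in CD8 T cells was 51.1% and 51.6% against 60.1% and 58.8%. Their Psmb10 share was 59.7% and 65.8% against 78.5% and 69.2%. In fibroblast-like cells the Psmb8 shares were 23.6% and 15.2% against 32.5% and 59.8%. The other pairs overlapped there, with Psmb9 at 14.1% and 3.84% against 11.3% and 35.0%. Psmb10 made up 42.2% and 31.5% against 34.8% and 76.6% in those cells. Psmb5 itself was 2.52 and 2.74 against 2.56 and 2.55 in the bulge and germ, so the Psmb8 shares there followed Psmb8. The constitutive subunits Psmb5, Psmb6 and Psmb7 gave no call in any class or comparison, and their median difference between AG and NO_AG mice was 0.08 in the bulge and germ and 0.22 in keratinocyte-like cells.

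**Figure D4:**
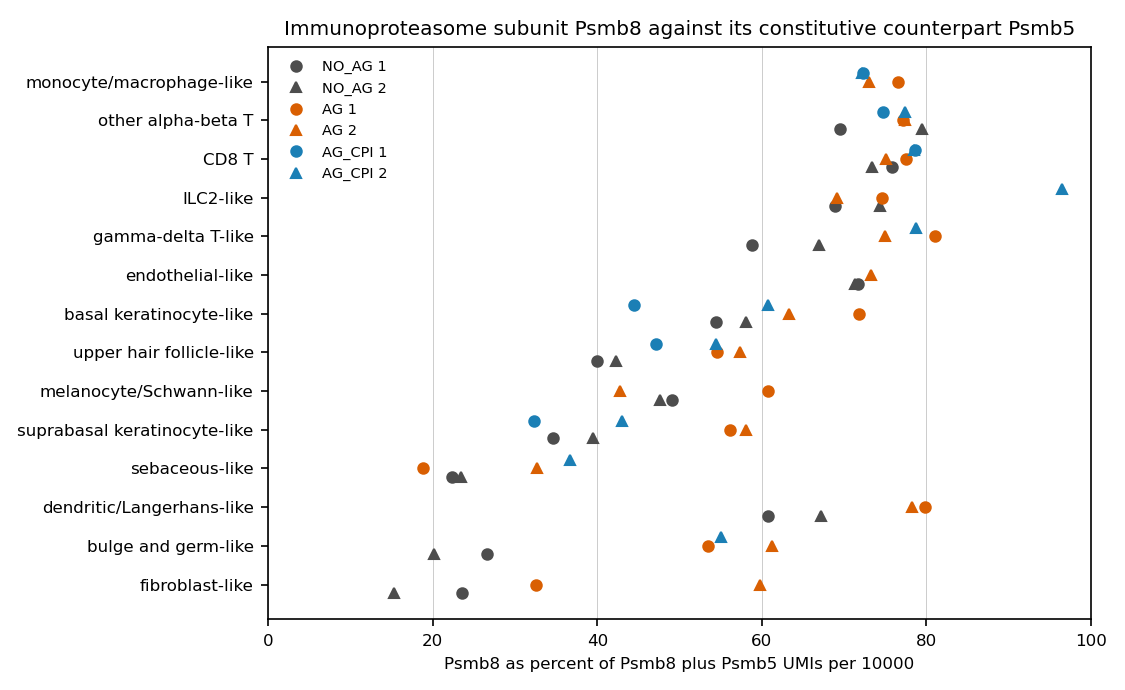
Share of Psmb8 in the summed level of Psmb8 and Psmb5 (%), per mouse and cell class, coloured by group. The lowest NO_AG point is 15.2% in fibroblast-like cells, those of CD8 T cells are at 75.8% and 73.4%, and the bulge and germ points move from 20.1% and 26.5% to 53.4% and 61.2% with antigen.

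Genes around the pathway were counted from lists of related function. Of 6 other class I heavy chains tested, 4 rose in the bulge and germ: H2-T22 (1.90, adjusted p = 0.00836), H2-Q7 (2.18, 0.0179), H2-Q6 (1.94, 0.0234) and H2-Q4 (1.54, 0.0492). H2-Q7 also rose in fibroblast-like cells, from 0.196 and 0.107 to 1.59 and 2.86, with H2-Q6 beside it (2 of 5 tested), and in dendritic/Langerhans-like cells, from 0.311 and 0.246 to 1.62 and 2.54 (1 of 6). Of the proteasome activator genes Psme1, Psme2 and Psme3, whose caps open the proteasome, Psme2 rose in the bulge and germ from 1.5 and 1.71 to 3.29 and 4.35 (adjusted p = 0.0338), and Psme1 rose in dendritic/Langerhans-like cells from 2.09 and 2.55 to 4.72 and 6.60 (adjusted p = 0.0449). The general chaperones and trimming genes of the loading list (Calr, Canx, Pdia3, Tapbpl, Erap1, Hspa5) gave 0 calls in every class and comparison. Their median difference was 0.33 in keratinocyte-like cells and 0.42 in the bulge and germ, where those of the members were 0.85 and 1.62.

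Irf1, an interferon-responsive activator of class I transcription, was 0.377 and 0.384 against 0.524 and 0.463 in keratinocyte-like cells (adjusted p = 0.697). Of 10 interferon receptor and signalling genes Stat2 rose in keratinocyte-like cells, from 0.164 and 0.182 to 0.519 and 0.536 (1.25 ± 0.15, adjusted p = 0.0235). Ifngr1, the ligand-binding chain of the interferon-gamma receptor, rose in dendritic/Langerhans-like cells from 0.161 and 0.122 to 0.952 and 1.40 (2.51 ± 0.32, adjusted p = 0.0237). In basal cells Ifngr1 was lower in both AG mice, 0.771 and 0.456 against 2.62 and 2.28, without passing the threshold (adjusted p = 0.102), and within the dividing cluster it was 0.594 and 0.365 against 1.40 and 1.69 (adjusted p = 0.237). Ifng itself, the ligand, was read in CD8 T cells at 3.49 and 3.1 with antigen off, at 6.67 and 4.08 with antigen on and at 3.77 and 3.82 with CPI added.

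The comparison of AG_CPI with AG mice asks what the added CPI did on top of antigen. No member was called in any of the 6 classes with enough cells. In keratinocyte-like cells, where 0.0367% of genes were called, all 10 differences were below 0 with a median of -0.47, and 9 members had both AG_CPI mice below both AG mice, against 19.8% of all genes. After the scaling used in the fits 7 did, against 17.1%. The lowest was Psmb10, at 1.31 and 1.41 in the AG mice and 0.851 and 0.607 in the AG_CPI mice (-0.80 ± 0.19, adjusted p = 0.409). Psmb8 was 5.29 and 4.43 against 3.36 and 2.90. B2m hardly differed, at 22.7 and 20.3 against 20.6 and 19.0, and the groups overlapped. At an unadjusted p under 0.05 there were 5 members (9.93% of all genes).

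The keratinocyte states gave like values, each with 0 members called. Without AG_CPI mouse 2 there was 1 call in basal cells, with 17.5% of all genes called. Basal cells had 0.0268% of genes called and a member median of -0.56, against -0.09 over all genes. Within the dividing cluster the median was -0.64, again with no call. Suprabasal cells and the upper hair follicle had 0% called and medians of -0.54 and -0.43. The largest difference of all was Psmb8 in suprabasal cells, 4.38 and 5.45 in the AG mice against 1.92 and 2.04 in the AG_CPI mice (-1.35 ± 0.28, adjusted p = 0.471), from 150, 30, 27 and 31 cells. At an unadjusted p under 0.05 there were 4 members in basal cells (12.3% of all genes), 3 in suprabasal cells (9.79%) and 4 in the upper follicle (9.75%). In CD8 T cells 0.152% of genes and no member were called, with a median of -0.06 and 1 member at an unadjusted p under 0.05 (5.37% of all genes). In monocyte/macrophage-like cells 0.546% of genes and no member were called, with a median of -0.09 and none at an unadjusted p under 0.05 (7.26% of all genes). Without AG mouse 1 those medians of CD8 T and monocyte/macrophage-like cells were 0.02 and 0.02. H2-K1 in the latter was 29.3 and 27.4 with antigen alone and 27.6 and 28.5 with CPI added. For the bulge and germ AG_CPI mouse 1 gave 7 cells, too few for a value. In mouse 2 (60 cells) B2m stood at 16.2, H2-K1 at 14.8, Psmb8 at 1.82, Psmb9 at 1.37 and Tap1 at 0.723. Those for B2m, H2-K1, Psmb8 and Psmb9 lay between the NO_AG and AG mice. Psmb10, at 0.216, lay within the NO_AG range of 0.183 and 0.3001, and was 0.159 in the shared cluster, below both NO_AG mice. Tap1 lay within the NO_AG range of 0.905 and 0.682, but was 1.21 in the 15 of these cells that fell in the shared cluster. Leukocyte markers in these cells summed to 19.7 UMIs per 10000, the most of any mouse, and their part in the values was not tested.

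AG_CPI mice were also compared with NO_AG mice, a comparison that shares its samples with the 2 above. No member was called in 5 classes. In keratinocyte-like cells, with 0.747% of genes called, 8 of the 10 members had both AG_CPI mice above both NO_AG mice, against 19.4% of all genes, and all 10 did after the scaling used in the fits, against 27.6%. The median difference was 0.48 and 5 members had an unadjusted p under 0.05 (15.6% of all genes). Psmb9 was highest there, at 0.987 and 1.25 against 1.67 and 1.76 (0.69 ± 0.17, adjusted p = 0.141). In basal cells, with 0.442% called, the nearest member was Psmb10, at 0.564 and 0.534 against 1.04 and 1.39 (1.10 ± 0.22, adjusted p = 0.0837). In those cells 4 members had an unadjusted p under 0.05 (17.8% of all genes), and 2 were called without either AG_CPI mouse (10.3% and 25% of all genes called). Their median was 0.40, and 0.16 within the dividing cluster. Suprabasal cells (0.0583% called), the upper hair follicle (0.88%) and CD8 T cells (3.66%) had medians of 0.37, 0.28 and 0.25, with 2, 1 and 1 members at an unadjusted p under 0.05 (11.7%, 13.7% and 17.3% of all genes). Ifngr1 fell by 1.58 ± 0.22 in keratinocyte-like cells (adjusted p = 0.0342) and by 2.68 ± 0.31 in basal cells (adjusted p = 0.0258), where it was 2.62 and 2.28 in the NO_AG mice and 0.209 and 0.348 in the AG_CPI mice. Those AG_CPI basal values rest on only 22 and 19 cells, with 115074 and 143121 UMIs of all genes. Within the dividing basal cluster Ifngr1 was 1.40 and 1.69 against 0.201 and 0.367, without passing the threshold (adjusted p = 0.051).

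Across the 69 pairs of a cell class and a mouse with at least 10 cells, 9 of the 10 genes outside the list whose levels ran most like the members' mean profile were Zbp1 (Pearson r = 0.88), H2-Q7 (0.88), Psme1 (0.86), Ly6e (0.81), H2-Q6 (0.81), Nmi (0.77), Samhd1 (0.77), Igtp (0.76) and H2-T22 (0.76), among 2727 genes compared. Among the members, Psmb8 ran most like the other 9 (mean r = 0.80) and Nlrc5 least (0.56). H2-K1 and H2-D1 had an r of 0.90, Psmb8 and Psmb9 an r of 0.89, and Tap1 was nearest to Psmb9, the gene it shares a promoter stretch with, at 0.75. These pairs share libraries and mice, so the coefficients describe the data and carry no test.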

How the data were processed

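The authors deposited, per cell and gene, log10 of 1 plus the UMIs per 10000 UMIs of the cell. The deposited files state no unit: on inversion 100% of values were whole UMIs under log10 (tolerance 0.01), against 65.3% to 67.8% under the natural log. Reads had been processed with Cell Ranger 3.1 on mm10, per the submitters' processing notes. Libraries were made with a 5' kit, per the labels' protocols.

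Cells needed 200 genes and at most 20% mitochondrial UMIs, and 666 likely doublets (Scrublet in scanpy 1.11.5) were removed, which left 20461 of 21178. They were clustered (Leiden, resolution 1) without the member genes and the listed class I and interferon genes, and 39 of 53 clusters were named from marker genes. The scoring rule for names was settled with the clusters and their cells per library in view, ahead of all tests of genes. The CD8 gate took alpha-beta T-like cells that had Cd8a or Cd8b1 UMIs but no Cd4 or Trdc UMI. The Trdc rule removed cells mainly from the groups with antigen. It left 125 of 127 and 381 of 386 cells in the NO_AG mice and 760 of 979 and 541 of 771 in the AG mice. In the AG_CPI mice 728 of 1121 and 824 of 1215 were left. Linear values were averaged per mouse and class (at least 10 cells), scaled by trimmed means, and log2(value + 0.1) was tested with limma-trend (limma 3.58.1, R 4.3.3) over the 4 to 6 mice that had enough cells of a class, for genes with 10 UMIs and a mean of 0.1 in at least 2 libraries. A count model had been planned in case the files held counts and was not used. The small pseudocount leaves differences of rare genes understated.

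The fit was tested on simulated data. Members and lists were chosen with earlier results of these data known. All 10 members are named, with the listed genes that were called and the 10 genes most like the members by the correlation given, except 1 gene that is not reported here. Clusters without a name were left out.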

Additional observations from a re-analysis of the deposited data

Results flagged for a closer look

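Ifngr1, the ligand-binding chain of the interferon-gamma receptor, was the listed gene whose change with antigen differed between 2 cell classes by a test of the difference itself. The change in CD8 T cells exceeded that in keratinocyte-like cells by 2.08 ± 0.27 on the log2 scale (limma, adjusted p = 0.00533), and the difference was higher in both AG mice. In CD8 T cells Ifngr1 was 1.52 and 0.863 UMIs per 10000 with antigen off and 1.83 and 2.40 with antigen on. In keratinocyte-like cells it was 1.30 and 0.921 with antigen off and 0.376 and 0.431 with antigen on. Groups of 2 mice are too small for a check of single outlying samples.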

How the results depend on the processing

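The median difference of the members between AG and NO_AG mice kept its sign in all 10 cell classes under every alternative run, between 0.70 and 1.05 in keratinocyte-like cells, 1.14 and 1.80 in the bulge and germ, 0.87 and 2.09 in fibroblast-like cells and 0.22 and 0.43 in CD8 T cells. The number of called members did not hold. Without the filter on low values, which adds genes to the adjustment, 0 members were called in keratinocyte-like, basal, bulge and germ and dendritic/Langerhans-like cells. At the coarser resolution of 0.5 there was 1 call in keratinocyte-like cells, 0 in basal, bulge and germ and fibroblast-like cells and 9 in dendritic/Langerhans-like cells. With doublets kept there were 0 in the bulge and germ, 0 in fibroblast-like cells (1079 cells in the class against 243) and 7 in dendritic/Langerhans-like cells. The dendritic/Langerhans-like class held 743 cells at the coarser resolution and 781 with doublets kept, against 429. These counts of calls are given without the share of all genes called, so a higher count does not show a change particular to the members. Stricter cell filters gave 0 and the deposited scaling alone 1 in fibroblast-like cells. Clustering on all variable genes gave 0 in basal cells, and thinning cells to 1500 UMIs gave 0 there and 0 in dendritic/Langerhans-like cells. A pseudocount of 0.5 gave 2 calls in the difference between CD8 T and keratinocyte-like cells. Leaving out the clusters that came mostly from 1 mouse gave 1 call in keratinocyte-like cells. That alternative, the subtraction of leukocyte RNA and the restriction of bulge and germ, basal, CD8 T and fibroblast-like cells to 1 cluster were chosen after seeing the data. Apart from that, the causes were not tested.

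Leaving out 1 mouse at a time gave 0 to 1 calls in keratinocyte-like cells, 0 to 2 in basal cells, 0 to 2 in the upper hair follicle, 4 to 8 in the bulge and germ, 3 to 5 in fibroblast-like cells, 4 to 9 in dendritic/Langerhans-like cells, 0 to 10 in gamma-delta T-like cells and 0 to 3 in ILC2-like cells for AG against NO_AG. In basal cells it gave 0 to 1 for AG_CPI against AG and 0 to 2 for AG_CPI against NO_AG, and it gave 0 to 4 for the difference between fibroblast-like and keratinocyte-like cells. The median of AG_CPI against AG ran from -0.20 to 0.02 (0.0240) in CD8 T cells and from -0.21 to 0.02 (0.0234) in monocyte/macrophage-like cells, both reversed without AG mouse 1.

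Replicate numbers recur in each group, and the labels do not tie same-numbered mice together. Deviations of same-numbered mice correlated between -0.17 and 0.08 over the 11 cell classes tested, at -0.14 in the bulge and germ and -0.03 in dendritic/Langerhans-like cells for NO_AG and AG, so the mice are taken to share only a number. With the replicate number as a block, called members were 4 in keratinocyte-like cells (0.6% of all genes called), 2 in suprabasal cells (0.306%), 9 in the bulge and germ (1.13%), 4 in fibroblast-like cells (0.731%), 9 in dendritic/Langerhans-like cells (5.52%) and 7 in gamma-delta T-like cells (1.42%), and no comparison with AG_CPI mice gained a call.

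With 2 mice per group and 27 to 85 fibroblast-like or 35 to 222 dendritic/Langerhans-like cells per mouse, a missed threshold does not show that a gene was unchanged. A comparison of endothelial-like with keratinocyte-like cells could not be run, since AG mouse 1 had 7 endothelial-like cells. Fibroblast-like and bulge and germ-like cells of AG_CPI mice could not be tested, with under 10 cells in at least 1 mouse.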
